A study of Sus scrofa with 22 samples.

Results

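The genes described here are the components of WNT signalling in porcine endometrium, namely the WNT ligands, the frizzled (FZD) and other receptors, the R-spondin axis, the secreted antagonists and the core intracellular components. They were chosen by gene symbol and not by a threshold on measured values, but with earlier results of these data known. In the pig annotation 68 genes matched, and 38 of them were among the 12401 genes listed in at least 1 of the 3 deposited count tables. The other 30 matching genes, which include WNT4, WNT11, PORCN, SFRP2, SFRP4 and the 4 R-spondins RSPO1 to RSPO4, were not in these tables and are not analysed here. The tables hold the luminal (LE) and glandular (GE) epithelium and the stroma (S), with 34 members listed in each and 30 in all 3.

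The libraries were made from cells collected by laser capture microdissection (LCM) from frozen endometrium of 8 gilts on Day 12. The gilts were prepubertal German Landrace and Piétrain crossbreeds, and in all of them ovulation was synchronised with PMSG and hCG. The 4 pregnant gilts (numbers 01, 03, 05 and 14) were inseminated with German Landrace semen, and the 4 control gilts (02, 04, 06 and 13) received cell-free semen supernatant from the same boar, so that seminal plasma was common to both groups. Each gilt gave an LE and a GE library, while S libraries are at hand for 6 gilts, that is without gilts 03 and 06. The comparison of pregnant with control gilts addresses the response of each cell type to the conceptus.

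WNT ligands are lipid-modified proteins that need the carrier protein WLS to reach the cell surface, where they bind frizzled receptors together with the co-receptors LRP5 and LRP6 or with ROR1 and ROR2. Binding to LRP5 and LRP6 stops the breakdown of beta-catenin (CTNNB1) by a complex of APC, AXIN and GSK3B, and beta-catenin then acts with TCF and LEF factors on its target genes. The ubiquitin ligases RNF43 and ZNRF3 remove frizzled receptors from the membrane, and R-spondins bound to LGR4 or LGR5 prevent this. In the uterus, WNT ligands are known for their part in gland formation and in the preparation for implantation.

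Total counts on listed genes lay between 893912 (pregnant LE of gilt 01) and 4020796 per library, with a median of 2982917.5. Marker genes fixed for each cell type did not separate the S libraries from epithelium. The 7 epithelial markers (EPCAM, KRT8, KRT18, KRT19, CDH1, CLDN4 and ESRP1) summed to 2593 to 3253 CPM (read counts scaled to a common library size) in control S, compared with 2793 to 3395 CPM in control LE and 768 to 2284 CPM in control GE. The 7 fibroblast markers, collagens among them, summed to 4594 to 8281 CPM in control S and to 11117 to 16500 CPM in control LE. In pregnant S they summed to 8028 and 11947 CPM in gilts 05 and 14 and to 60914 CPM in gilt 01. Smooth muscle markers were highest in control GE of gilt 02 (8147 CPM) and in pregnant LE of gilt 01 (4969 CPM). These libraries and pregnant S of gilt 01 stand apart from their groups. The LE and S libraries of gilt 02, in contrast, had the lowest fibroblast marker sums of control LE and control S (11117 and 4594 CPM). FOXA2, a factor of uterine glands, was listed for GE (48.3 ± 26.0 CPM in control, SD, n = 4) and for S (28.1 ± 28.3 CPM in control, SD, n = 3), but not for LE. The names LE, GE and S are therefore used below as the labels give them, and the counts of called members are also given without gilts 01 and 02.

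**Figure D1:**
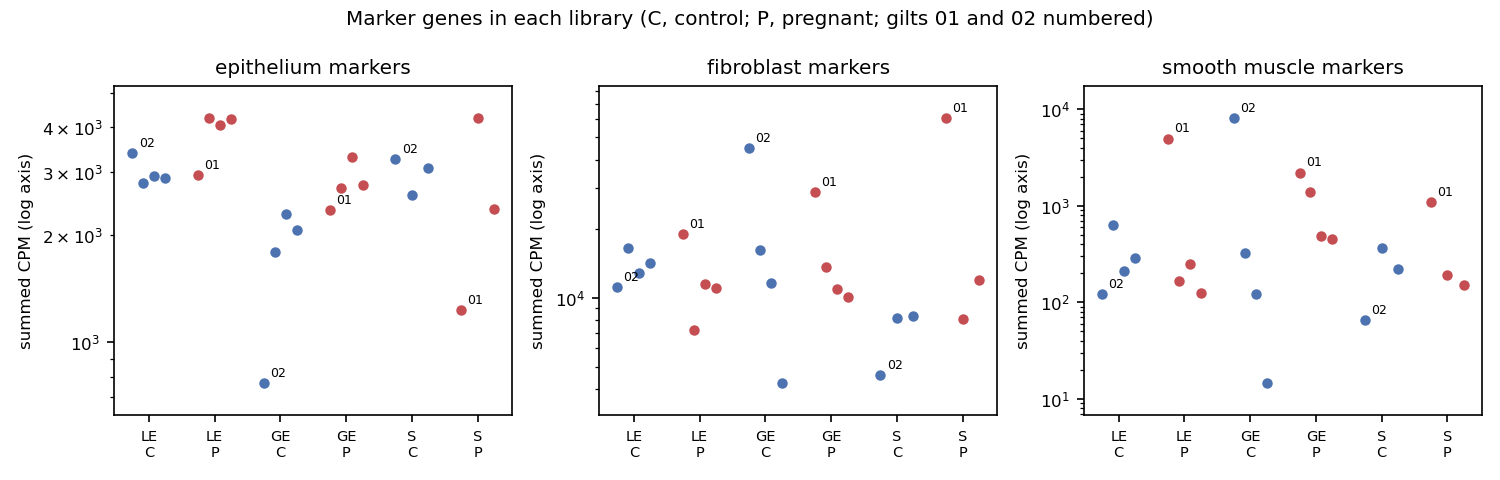
Summed CPM of epithelial, fibroblast and smooth muscle marker genes on a log axis in each of the 22 libraries, by cell type and status. Points of gilts 01 and 02 are numbered, and control S libraries have 2593 to 3253 CPM of epithelial markers, compared with 2793 to 3395 CPM in control LE.

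CPM were normalised by TMM within the table of a cell type. A log2 FC above 0 means a higher level in the pregnant group, and SE is its standard error. To be called DE, a member had to reach an adjusted p below 0.01 in LE, whereas GE and S used an unadjusted p below 0.0021. Values of single libraries are listed in the order of gilts 02, 04, 06 and 13 for the control group and 01, 03, 05 and 14 for the pregnant group. In tissue samples of this kind, fewer cells of a type and less RNA per cell cannot be told apart.

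In LE, 7 of the 34 listed members were DE and all 7 were lower in pregnant gilts (background: 10% of the 11415 genes tested were called, 6.33% higher and 3.71% lower). They were the ligands WNT5A and WNT7A, the ligand carrier WLS, the receptor FZD6, the R-spondin receptors LGR4 and LGR5 and the ligase RNF43. None of the 8 cytoplasmic components and none of the 4 TCF and LEF factors was called. The median log2 FC was −0.37 over the 34 members and 0.01 over all genes, and 23 members had a negative and 11 a positive log2 FC. Only members listed in the table enter these counts, and a member can be listed through the group in which it was high. WNT7A, LGR5 and RNF43, with few counts in pregnant LE, can be listed through the control group. For them a lower pregnant level and the lack of overlap can be partly fixed by the listing.

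WNT5A (chr13:37344684-37367215), the main ligand of beta-catenin-independent WNT signalling, had 180, 210, 189 and 192 CPM in control LE. In pregnant LE the values were 82.9, 56.6, 81.6 and 71.8 CPM. Every pregnant library was below every control library, and the libraries within each group differed little. The log2 FC was −1.40 (SE 0.17, adjusted p = 0.000409, edgeR quasi-likelihood test with Benjamini-Hochberg adjustment).

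WNT7A (chr13:70538802-70602464), an epithelial ligand of the uterus, was listed for LE alone. Its level was 12.2, 13.4, 14.6 and 7.36 CPM in control LE and 0, 2.08, 1.21 and 2.19 CPM in pregnant LE. The pregnant values rest on 0, 4, 4 and 7 counts, so that the size of the difference is imprecise. The groups did not overlap, and the log2 FC was −2.88 (SE 0.48, adjusted p = 0.00236, edgeR with Benjamini-Hochberg adjustment). The third listed ligand, WNT2, had 25.9 ± 10.2 CPM in control and 10.8 ± 8.15 CPM in pregnant LE (SD, n = 4 each) and was not called (adjusted p = 0.112).

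WLS (chr6:144242639-144529659) carries WNT proteins from the Golgi to the cell surface and had, averaged over both groups, the highest level per kilobase of the members in each of the 3 cell types. In LE it had 703, 733, 813 and 661 CPM in control gilts and 249, 343, 170 and 228 CPM in pregnant gilts. Every control library was far above every pregnant library. The log2 FC was −1.56 (SE 0.22, adjusted p = 0.000971). Of the exon bases of WLS, 3.27% overlap an uncharacterised gene on the opposite strand, and whether reads were counted by strand is not stated.

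FZD6 (chr4:33811159-33844556) had the smallest adjusted p of the members. This frizzled receptor is known for planar cell polarity, the alignment of cells within an epithelial sheet. Control LE libraries had 201, 179, 272 and 185 CPM and pregnant LE libraries 33.9, 47.3, 44.7 and 60.3 CPM, without overlap. The log2 FC was −2.15 (SE 0.22, adjusted p = 0.000169).

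LGR4 (chr2:32871837-32979150) and LGR5 (chr5:35463257-35595234) are receptors of R-spondins, and LGR5 is a known marker of epithelial stem cells in other organs. LGR4 had 561, 683, 842 and 599 CPM in control LE and 159, 140, 177 and 396 CPM in pregnant LE (log2 FC −1.62, SE 0.33, adjusted p = 0.00645). The pregnant library of gilt 14 was above the other 3 pregnant libraries and still below the lowest control library. LGR5 had 35.8, 13.4, 18.8 and 50.4 CPM in control LE, and 0, 2.08, 1.51 and 0.62 CPM in pregnant LE, which rest on 0, 4, 5 and 2 counts. The groups of LGR5 did not overlap, and its log2 FC of −4.60 was the largest decrease among the members in LE (SE 0.61, adjusted p = 0.000723). LGR5 can be listed for LE through the control libraries, so that a lower pregnant level can be partly fixed by the listing.

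RNF43 (chr12:34631574-34695021), which removes frizzled receptors from the membrane, had 8.12, 8.02, 11.14 and 10.13 CPM in control LE. In pregnant LE it had 0, 0.52, 0.91 and 2.81 CPM, or 0, 1, 3 and 9 counts. The groups did not overlap (log2 FC −2.78, SE 0.54, adjusted p = 0.00523). Its paralog ZNRF3 was not called, with 41.7 ± 8.58 CPM in control and 58.8 ± 28.1 CPM in pregnant LE (SD, n = 4 each, log2 FC 0.50, adjusted p = 0.269).

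The promoter windows of the members were read from Sscrofa11.1, 250 bases before to 50 bases after the annotated gene start, and searched on both strands for the TCF/LEF core motifs CTTTGAT and CTTTGAA. Of 30348 windows, 7.23% held either motif, compared with 5 of the 38 listed members (AXIN2, DKK1, LEF1, TCF7 and WLS) and 2 of the 10 members called in any comparison (WLS and LEF1). The palindromic oestrogen response element was in 0.0231% of all windows and in 0 of the 38. The windows of WLS and LEF1 are shown because they hold the motif, with the match in capitals, and that of FZD6 because it had the smallest adjusted p of the members in LE, without a match. In WLS the matches begin 229 and 65 bases before the start and in LEF1 238 bases before it, all 3 on the strand opposite to the gene. A match is a description of the letters and not of a binding site.
WLS, chr6:144242389-144242688, plus strand: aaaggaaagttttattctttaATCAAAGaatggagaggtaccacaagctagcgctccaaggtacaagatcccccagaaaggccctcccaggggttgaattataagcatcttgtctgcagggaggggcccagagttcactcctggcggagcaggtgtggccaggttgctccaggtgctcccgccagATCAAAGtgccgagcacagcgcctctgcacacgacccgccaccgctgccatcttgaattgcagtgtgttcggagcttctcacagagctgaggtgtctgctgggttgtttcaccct
LEF1, chr8:113824261-113824560, plus strand: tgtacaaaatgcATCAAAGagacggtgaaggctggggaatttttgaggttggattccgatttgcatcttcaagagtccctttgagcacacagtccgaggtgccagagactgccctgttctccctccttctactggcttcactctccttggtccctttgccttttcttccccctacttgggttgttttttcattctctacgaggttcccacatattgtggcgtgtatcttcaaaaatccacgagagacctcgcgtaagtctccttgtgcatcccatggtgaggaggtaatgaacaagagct
FZD6, chr4:33844507-33844806, minus strand: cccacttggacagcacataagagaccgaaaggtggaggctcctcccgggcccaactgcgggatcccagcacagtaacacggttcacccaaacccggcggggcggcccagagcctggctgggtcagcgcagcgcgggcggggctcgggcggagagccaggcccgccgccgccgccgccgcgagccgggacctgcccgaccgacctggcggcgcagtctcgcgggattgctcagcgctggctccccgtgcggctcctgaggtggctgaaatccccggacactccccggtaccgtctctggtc

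The 7 calls in LE were not equally stable when each gilt was left out in turn. WNT5A, WLS, FZD6 and LGR5 were called in 8 of 8 such fits, and WNT7A in 6 of 8, failing without gilt 04 or without gilt 05, fits in which 4 members were called. LGR4 was called in 1 of 8 and RNF43 in 2 of 8, with log2 FC from −2.08 to −1.45 for LGR4 and from −3.79 to −2.56 for RNF43. Without gilts 01 and 02, an alternative added after the data had been seen, 5 members were called in LE, and LGR4 and RNF43 were not. The fibroblast marker sum was 11117 to 16500 CPM in control and 7194 to 18934 CPM in pregnant LE, while among the epithelial markers CDH1 and CLDN4 were higher and KRT8 and KRT19 lower in pregnant LE. The part of cell composition in the WNT results was not tested.

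**Figure D2:**
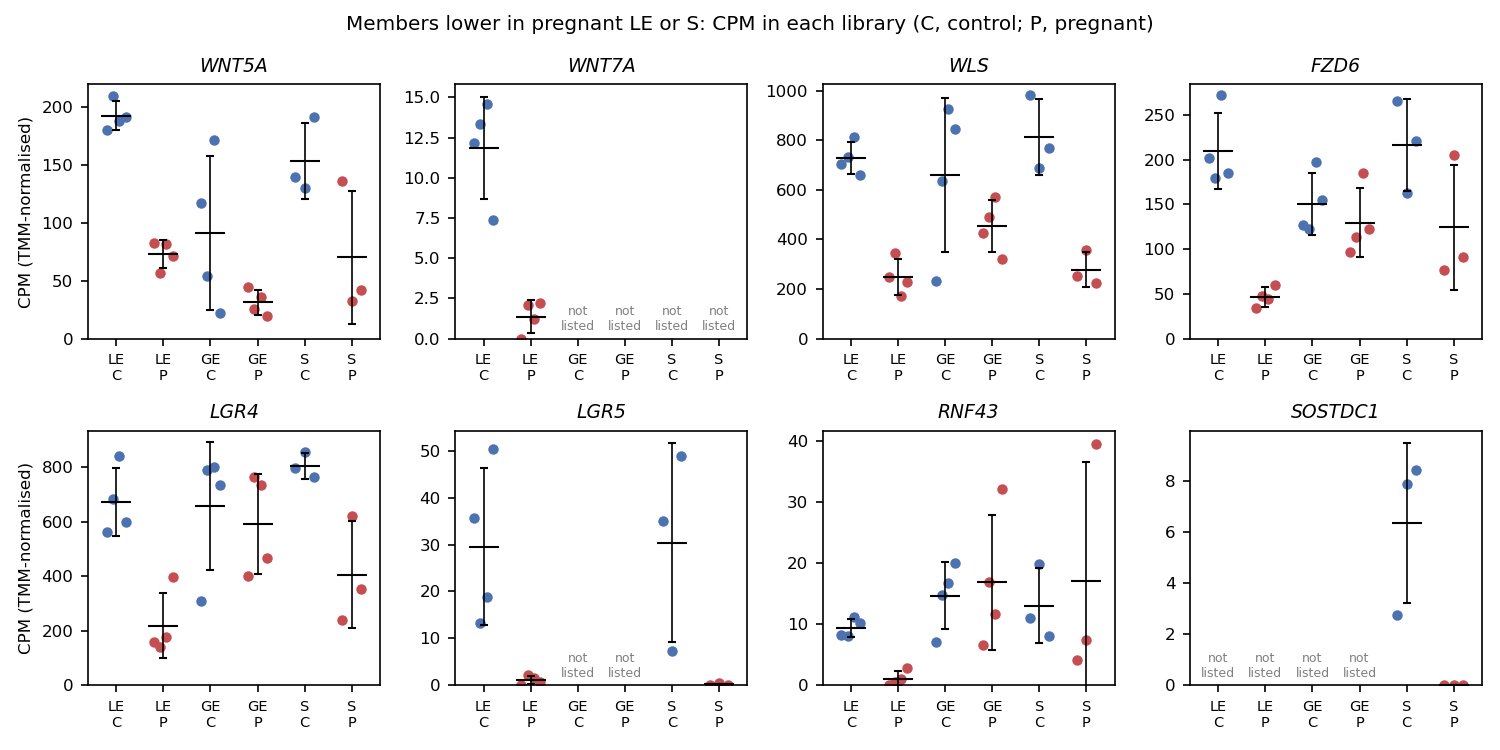
CPM (linear axis from 0) of 8 members in each library of LE, GE and S, for control (C) and pregnant (P) gilts, with points for libraries and bars for mean ± SD. In LE the 7 members listed there have no overlap between control and pregnant libraries, and in S the pregnant libraries of LGR5 and SOSTDC1 lie at or near 0.

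Among the members that were not called in LE, 3 others had libraries without overlap (10 in all, 1 higher and 9 lower; background: 26.7% of genes did not overlap, 14% higher and 12.7% lower). WNT7A, LGR5 and RNF43 can enter the count of 10 through their listing by the control group. DKK3, grouped with the antagonists by its symbol alone, had 51.5 to 65.7 CPM in control and 9.87 to 39.9 CPM in pregnant LE (log2 FC −1.21, SE 0.34, adjusted p = 0.0269). The receptor FZD3 had 95.3 to 119.7 CPM in control and 19.8 to 80.0 CPM in pregnant LE (log2 FC −0.96, SE 0.31, adjusted p = 0.0502). Beta-catenin itself, CTNNB1, was the member with higher libraries in pregnant gilts, with 409 to 477 CPM in control and 519 to 809 CPM in pregnant LE (log2 FC 0.48, SE 0.18, adjusted p = 0.0786). None of these 3 passed the threshold of 0.01. Of the exon bases of CTNNB1, 9.29% overlap ULK4 on the opposite strand.

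None of the other 10 listed receptors and co-receptors of LE was called. The co-receptor LRP5 had 41.4 ± 5.89 CPM in control and 90.9 ± 38.9 CPM in pregnant LE (SD, n = 4 each, log2 FC 1.11, adjusted p = 0.0216), while LRP6 had a log2 FC of −0.47 (adjusted p = 0.214). FZD7 had a log2 FC of 1.28 (adjusted p = 0.0289) and FZD1 of −0.89 (adjusted p = 0.0254). FZD5, the frizzled receptor with the highest level per kilobase in pregnant LE, had 313 ± 28.3 CPM in control and 375 ± 192 CPM in pregnant LE. DKK1, an LRP5 and LRP6 antagonist and the most abundant antagonist per kilobase, had 81.8 ± 11.0 CPM in control and 64.5 ± 29.5 CPM in pregnant LE (adjusted p = 0.457).

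**Figure D3:**
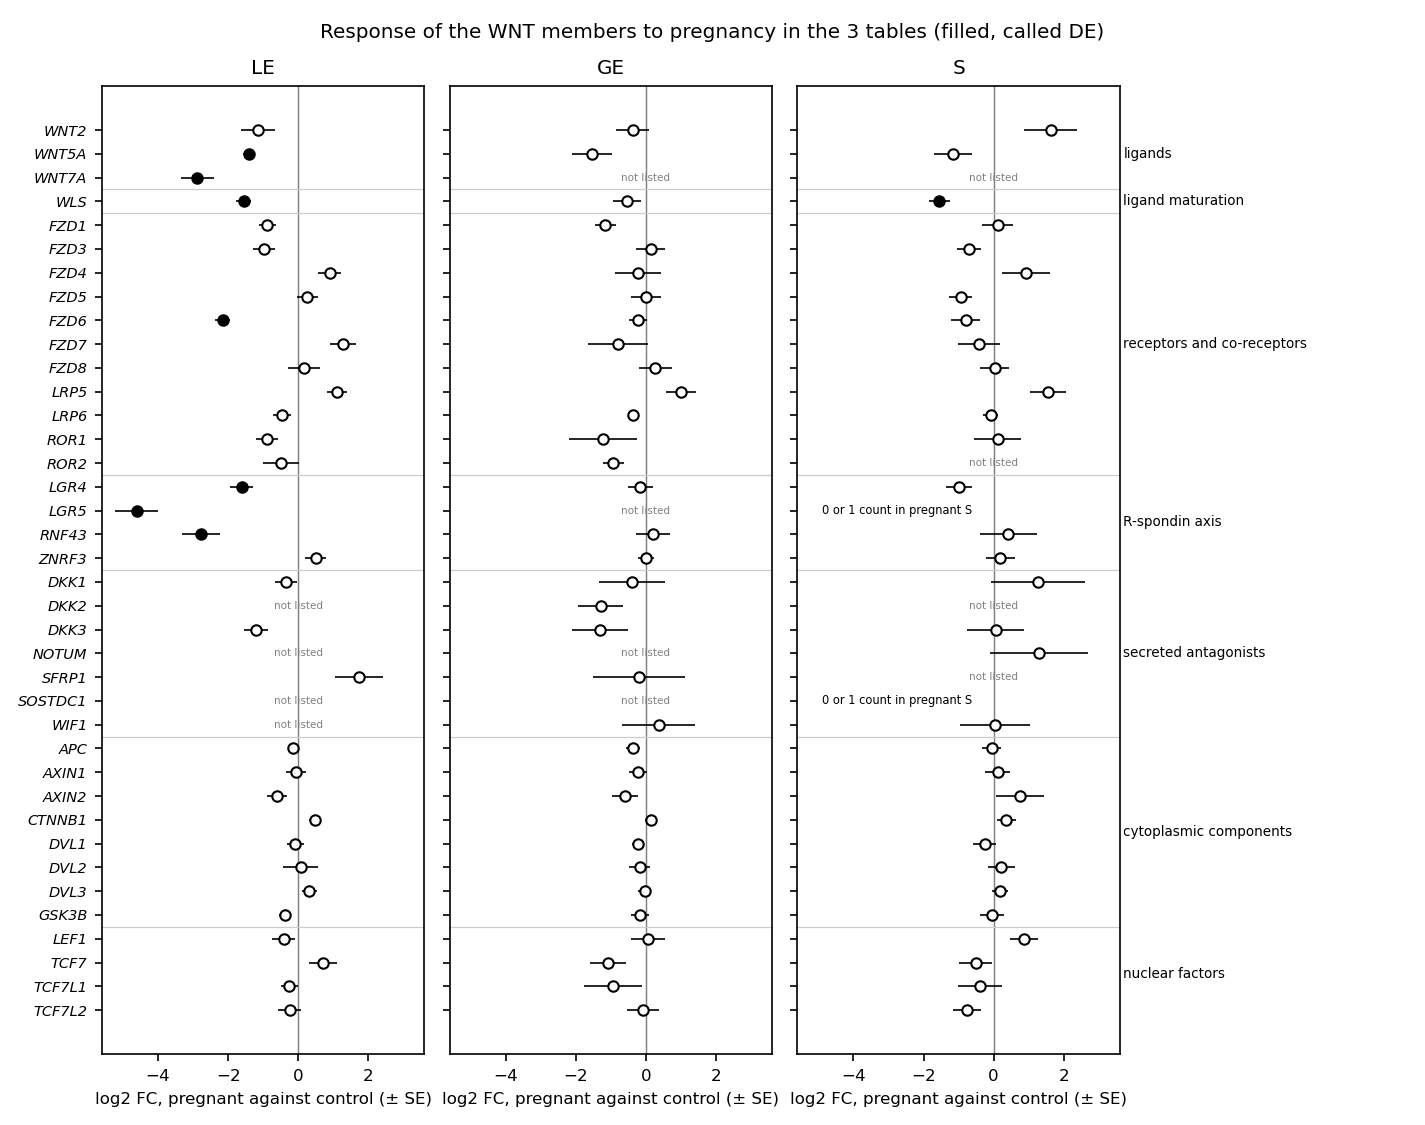
log2 FC (pregnant against control, ± SE) of the 38 listed members in LE, GE and S, ordered by role. Filled points mark the DE members, 7 for LE, 0 for GE and WLS for S. LGR5 in S, also called, and SOSTDC1 are written as text because their pregnant S libraries hold 0 or 1 count.

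In GE, none of the 34 listed members was DE (background: 0.694% of 11676 genes). By the edgeR quasi-likelihood test 4 members had an unadjusted p below 0.05, compared with 945 of all 11676 genes. DESeq2 called 1 member, FZD1. The median log2 FC was −0.23 over the members and −0.02 over all genes. The libraries of 4 members did not overlap, all lower in pregnant GE (background: 4.92% of genes, 2.2% lower). FZD1 had 91.8, 52.0, 80.8 and 40.5 CPM in control and 33.3, 38.0, 25.8 and 21.9 CPM in pregnant GE (log2 FC −1.15, SE 0.31, adjusted p = 0.357). ROR2, a receptor of WNT5A, had 8.64 to 15.2 CPM in control and 5.30 to 8.58 CPM in pregnant GE (log2 FC −0.93, adjusted p = 0.468). The other 2 were LRP6 (log2 FC −0.36) and APC (log2 FC −0.38).

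The members called in LE gave the following values in GE. FZD6 had 126.9, 122.6, 197.4 and 155.0 CPM in control and 96.9, 113.2, 185.2 and 122.3 CPM in pregnant GE, with overlapping groups and a log2 FC of −0.22 (SE 0.25). WNT5A had 117, 53.9, 172 and 22.4 CPM in control and 44.4, 25.4, 35.9 and 19.8 CPM in pregnant GE (log2 FC −1.55, SE 0.57, adjusted p = 0.505). The control libraries of WNT5A were spread widely, and the group difference was within that spread. Leaving out gilt 13, FZD1 and WNT5A were called in GE, and without gilts 01 and 02 the count was 0. The log2 FC of WLS was −0.55 (SE 0.40), that of LGR4 −0.16 (SE 0.35) and that of RNF43 0.20 (SE 0.50), and LGR5 and WNT7A were not listed for GE.

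In S, 2 of the 34 listed members were DE, LGR5 and WLS, both lower in pregnant gilts (background: 1.47% of 11532 genes were called, 1.05% lower). The median log2 FC was 0.03 over the members and 0.08 over all genes. LGR5 had 89, 25 and 134 counts in control S of gilts 02, 04 and 13, which correspond to 35.0, 7.30 and 49.1 CPM. In pregnant S it had 0, 1 and 0 counts in gilts 01, 05 and 14. Summed over the groups, 248 counts stood against 1 count, a ratio of 214 after correction for library size (95% exact counting interval 38.0 to 8469; unadjusted p = 0.000288 and adjusted p = 0.0773, edgeR quasi-likelihood test). This interval covers counting error only and not the spread between gilts. LGR5 was listed for S through the control libraries, so that a lower pregnant level was partly fixed by the listing.

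WLS had 984, 687 and 767 CPM in control S and 254, 357 and 224 CPM in pregnant S, without overlap. The log2 FC was −1.55 (SE 0.31, unadjusted p = 0.00135, adjusted p = 0.124, edgeR). Neither S call passed an adjusted p of 0.05. The call of WLS held in 1 of 6 fits that left out a gilt and that of LGR5 in 5 of 6. Without gilts 01 and 02, only control S of gilts 04 and 13 and pregnant S of gilts 05 and 14 remain. In this smaller set neither WLS nor LGR5 was called (unadjusted p = 0.0151 for WLS and 0.00549 for LGR5, edgeR), while WNT5A was. The libraries of WLS still did not overlap.

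SOSTDC1, a secreted antagonist of WNT and BMP signals, was listed for S alone. It had 7, 27 and 23 counts in control S and 0 counts in every pregnant S library. Its listing thus rests on the control libraries, and a lower pregnant level was partly fixed by the listing. Against a floor of 3 counts per library the pregnant level was at least 4.38-fold below the control mean. This bound leaves out the spread between gilts, since control S of gilt 02 had 2.76 CPM and the mean floor was 1.45 CPM. With an unadjusted p of 0.00251 (adjusted p = 0.142, edgeR quasi-likelihood test) SOSTDC1 missed the threshold, and DESeq2 called it. The paper names SOSTDC1 among the genes that were DE in stroma alone. The level of this gene in control S was low, with 6.35 ± 3.13 CPM (SD, n = 3).

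In total 8 members had non-overlapping libraries in S, 1 higher and 7 lower (background: 17.6% of genes, 8.18% higher and 9.38% lower). The higher member was LRP5, with 42.5, 54.3 and 50.9 CPM in control and 89.8, 73.7 and 270 CPM in pregnant S (log2 FC 1.55, SE 0.51, adjusted p = 0.286). Besides LGR5, WLS and SOSTDC1, the lower members were FZD5, LGR4, FZD3 and TCF7. LGR5 and SOSTDC1 enter this count through their listing by the control group. FZD5 had 429 to 463 CPM in control and 134 to 288 CPM in pregnant S (log2 FC −0.94), and LGR4 had 764 to 855 CPM in control and 240.3 to 621 CPM in pregnant S (log2 FC −0.99). The library of gilt 01, with the highest fibroblast marker sum, had the lowest level of FZD3, FZD5, LGR4 and TCF7 in pregnant S. It also had the lowest total of the S libraries (1344151 counts). WLS was lowest in gilt 14 (224 CPM, compared with 254 CPM in gilt 01). The part of cell composition or depth in this order was not tested.

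WNT5A and DKK1 in S turned on gilt 01. WNT5A had 139, 130 and 191 CPM in control S and 136, 32.8 and 41.7 CPM in pregnant S, and it was not called (log2 FC −1.15, adjusted p = 0.45). Without gilt 01 its log2 FC was −2.07 and it passed the threshold. DKK1 had 22.4, 23.1 and 63.3 CPM in control S and 227, 38.8 and 0.61 CPM in pregnant S, and without gilt 01 its log2 FC changed from 1.26 to −0.91. In pregnant S the 4 lymphatic markers summed to 27.6 to 252 CPM, compared with 4.97 to 7.87 CPM in control S, and their part in the S results was not tested.

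The difference in response between cell types was tested directly. The response of FZD6 in LE was lower than that in GE by 1.94 on the log2 scale (interaction −1.94, SE 0.33, adjusted p = 0.0202), and FZD6 was the member called among the 32 listed for LE and GE (background: 0.958% of 10851 genes). With the gilt as a block the value was −1.95 (adjusted p = 0.0157), and RNF43 was called in addition (interaction −3.28, SE 0.51, adjusted p = 0.0248, compared with −2.98 and adjusted p = 0.0765 without the block; background with the block: 1.41%). Leaving out a gilt gave FZD6 interactions from −2.13 to −1.70, called in 3 of 8 fits, and it was not called without gilts 01 and 02 (−1.93). Interactions were not called for any member between LE and S (background: 0.00918% of 10890 genes) or between GE and S (background: 0% of 11124 genes). DESeq2 called 0 members in either. Between LE and S, 6 of 31 members had an unadjusted p below 0.05 (edgeR quasi-likelihood test), compared with 1237 of the 10890 genes. Between GE and S, 2 of 31 members had such a p, compared with 490 of the 11124 genes. The interactions of WLS, for example, were −1.02 (SE 0.47) between LE and GE and 0.02 (SE 0.35) between LE and S.

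Over both groups of gilts, 7 of 32 members differed in level between LE and GE (adjusted p below 0.05, background: 25.9% of genes, 11.7% higher and 14.2% lower), 2 higher and 5 lower in LE. LEF1 (chr8:113824511-113944078), which acts with beta-catenin on target genes, differed most. It had 121, 78.0, 230 and 152 CPM in control LE and 423, 779, 662 and 1786 CPM in control GE. In pregnant gilts it had 70.0, 100.2, 115 and 146 CPM in LE and 482, 847, 1096 and 1387 CPM in GE. Every GE library was above every LE library, with a log2 difference (LE minus GE) of −2.91 (SE 0.32, adjusted p = 5.85e-05) and no call of a response to pregnancy in LE or GE. LEF1 was also lower in LE than in S (log2 difference −1.90, SE 0.28, adjusted p = 0.0051).

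TCF7L2 (chr14:123343695-123547332), a related factor of the same family, showed the opposite order. It had 99.6 to 126 CPM in control and 40.9 to 138 CPM in pregnant LE, compared with 15.9 to 70.5 CPM in control and 32.2 to 55.7 CPM in pregnant GE (log2 difference 1.29, SE 0.31, adjusted p = 0.00618). WNT5A was also higher in LE than in GE (log2 difference 1.13, adjusted p = 0.0141). Lower in LE than in GE were RNF43 (−2.15, adjusted p = 0.000868), FZD8 (−0.99, adjusted p = 0.0436), LGR4 (−0.72, adjusted p = 0.048) and FZD6 (−0.51, adjusted p = 0.0322). Within pregnant gilts the log2 differences of RNF43, LGR4 and FZD6 were −3.65, −1.45 and −1.48, and within control gilts they were −0.66, 0.02 and 0.46.

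With the gilt as a block, 8 members differed between LE and GE (background with the block: 30.9%), 6 of the 7 above together with DKK3 (1.43, adjusted p = 0.0358) and TCF7 (−0.74, adjusted p = 0.0342), while FZD8 was not called (−0.93, adjusted p = 0.106). LEF1, RNF43 and TCF7L2 were called in 8 of 8 fits without a gilt, WNT5A in 7, FZD6 in 3, and FZD8 and LGR4 in 2. Without gilts 01 and 02, 10 members were called, the 7 among them. Between LE and S, LEF1 and RNF43 (−2.08, SE 0.51, adjusted p = 0.0366) were called of 31 members (background: 3.95%, 3.24% lower), and LEF1 held in 8 of 8 and RNF43 in 3 of 8 fits without a gilt, while 7 members were called without gilt 01 and the same 2 without gilts 01 and 02. Between GE and S no member was called (background: 0%), and DESeq2 called 0. An unadjusted p below 0.05 (edgeR quasi-likelihood test) was reached by 3 of 31 members, compared with 753 of 11124 genes. The largest difference among these 3 was that of TCF7L2 with −1.02 (SE 0.33, adjusted p = 0.691).

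**Figure D4:**
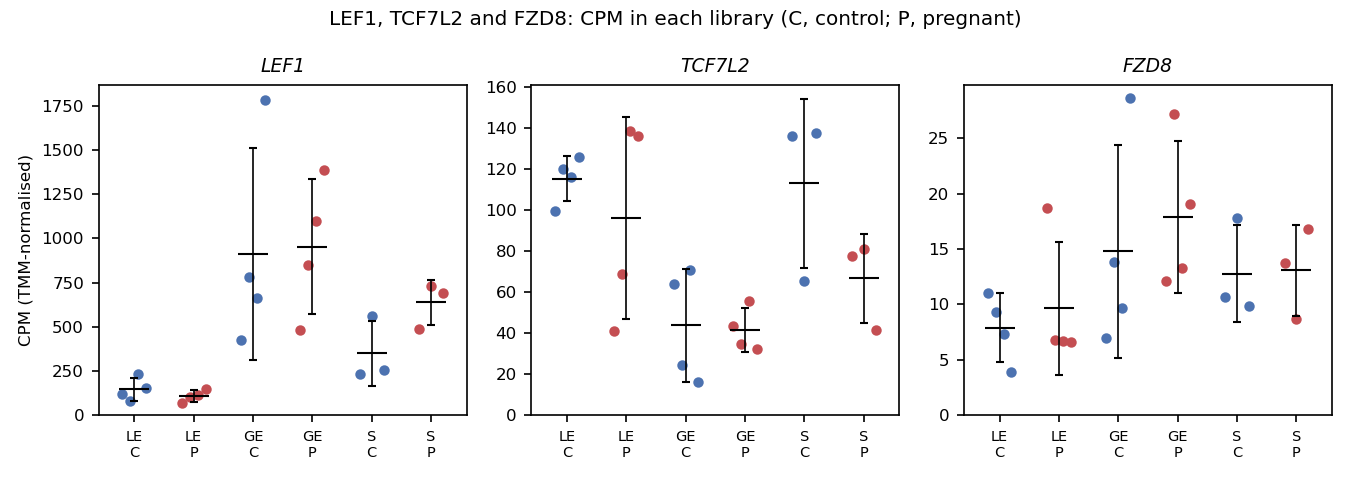
CPM (linear axis from 0) of LEF1, TCF7L2 and FZD8 in each library of LE, GE and S for control (C) and pregnant (P) gilts, with points for libraries and bars for mean ± SD. The lowest GE library of LEF1 (423 CPM) lies above its highest LE library (230.0 CPM).

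Levels between members were compared as CPM per kilobase of exon, averaged over the control and the pregnant group. WLS was highest in LE (130), GE (148) and S (145), followed by CTNNB1 (118, 104 and 108). In LE these were followed by DKK1 (91.3), LGR4 (60.3), FZD5 (55.7) and FZD6 (50.6). In GE, LEF1 held the third place with 103, compared with 13.9 in LE and 54.4 in S. Neighbours in this order often did not differ beyond the spread of libraries. For example, in pregnant LE the libraries of LGR4 (18.9 to 53.7 CPM per kilobase) and FZD5 (42.0 to 107) overlapped, while in control LE those of LGR4 (76.1 to 114) were all above FZD5 (44.9 to 55.9). The order of the first 2 members also depended on the group, since in pregnant LE CTNNB1 (113 to 177) was above WLS (45.2 to 91.2) in every library. At the low end of LE were RNF43 (0.985) and the receptors ROR1 (1.76) and ROR2 (1.98).

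**Figure D5:**
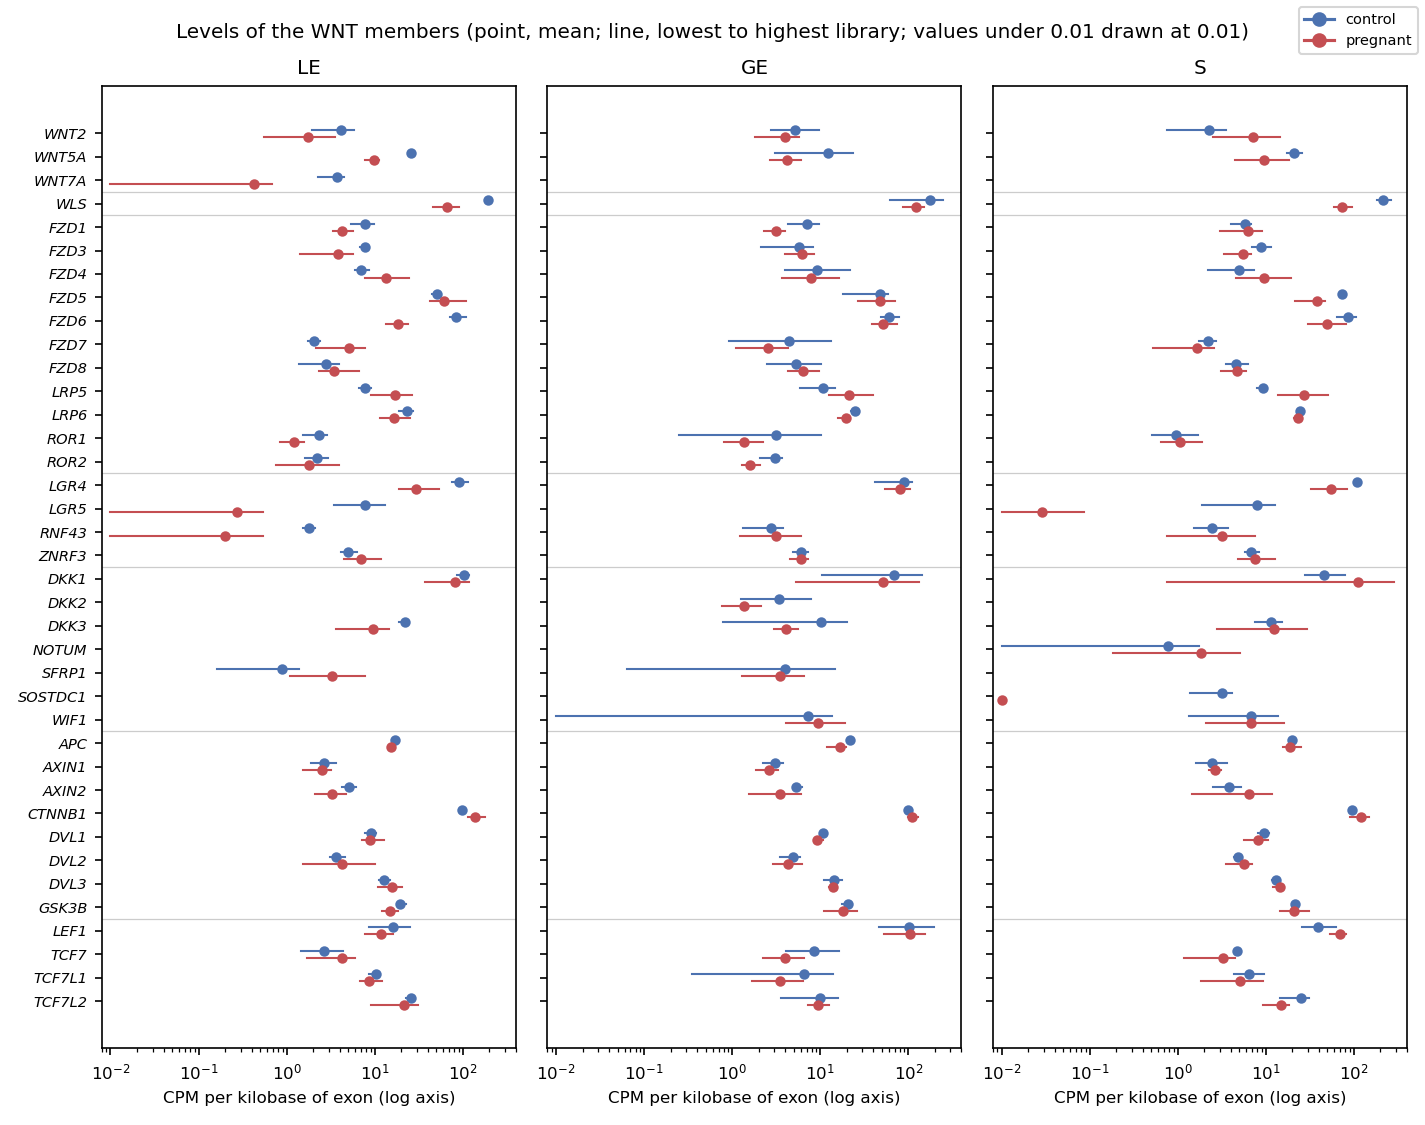
Level of each listed member as CPM per kilobase of exon on a log axis, in control and pregnant gilts of LE, GE and S, with points for means and lines from the lowest to the highest library. In pregnant LE the means of WNT7A (0.423), LGR5 (0.273) and RNF43 (0.200) are the lowest; values under 0.01 are drawn at 0.01.

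Genes of the wider pathway, from lists that do not overlap the members, were also described in LE, where 6.33% of all genes were called higher and 3.71% lower (10% in all). Of 23 listed destruction complex and cytoplasmic regulators, 3 were DE and all lower, namely AMER1 (log2 FC −1.60, adjusted p = 0.00247), which binds APC, the WNT feedback inhibitor CXXC5 (−1.91, adjusted p = 0.00114) and the ubiquitin ligase subunit BTRC (−1.06, adjusted p = 0.00911). Of 18 nuclear partners, the co-repressor CTBP2 was higher (1.31, adjusted p = 0.00213). Of 23 genes of the planar polarity and calcium branch, RAC1 (1.55, adjusted p = 0.000128) and NFATC1 (1.18, adjusted p = 0.00576) were higher and CELSR2 (−1.24, adjusted p = 0.00469) and INVS (−1.12, adjusted p = 0.00972) lower. None of 13 other receptors and surface modulators was called. The medians of these 4 lists lay between −0.03 and 0.10, compared with 0.01 over all genes.

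Of 16 listed genes that are commonly reported as beta-catenin targets, 3 were higher and 1 lower in pregnant LE (background: 10% called, 6.33% higher and 3.71% lower), with a median log2 FC of 0.18. The list holds no members. LGR5 and RNF43, members that are also reported as targets and were called lower in LE, therefore do not enter these counts. FOSL1, an AP-1 subunit, had 0.332 ± 0.285 CPM in control and 8.77 ± 1.78 CPM in pregnant LE (SD, n = 4 each, log2 FC 4.42, adjusted p = 0.000522). Its control mean was below the floor of 3 counts (0.746 to 1.14 CPM in control LE), so that the size of the difference is imprecise. FOSL1 can also be listed through the pregnant group, in which it was high. The receptor kinase MET had a log2 FC of 1.97 (adjusted p = 0.00133) and the urokinase receptor PLAUR of 1.85 (adjusted p = 0.00767), whereas the adhesion protein NRCAM had −3.92 (adjusted p = 0.000671). AXIN2, the best known target and itself a member, was not called in LE (26.8 ± 4.85 CPM in control and 17.0 ± 6.42 CPM in pregnant gilts, SD, n = 4 each, adjusted p = 0.153). In GE none of the 5 lists held a called gene (background: 0.694%), and in S (background: 1.47%) AMER1 was lower (−1.99, unadjusted p = 0.000175, edgeR) and BMP4 higher (2.10, unadjusted p = 0.00133, edgeR).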

How the data were processed

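RNA-seq libraries of LCM samples from 8 gilts were analysed, 22 in all. As the authors describe, adapters and read starts were clipped, reads were mapped with Hisat2 to Sscrofa11.1, PCR duplicates were removed by the random bases of the adapter, and genes were filtered by CPM. Read counts per gene, not normalised, were deposited in a separate table per cell type. The authors tested them with edgeR; the counting tool, use of strand and level of the CPM filter are not given in the sources used here. The members and gene lists were chosen with earlier results of these data known.

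Counts of each table were fitted in edgeR 4.0.16 (R 4.3.3, limma 3.58.1) with TMM normalization and the quasi-likelihood F test over all listed genes, with Benjamini-Hochberg adjustment, at the thresholds of the study for each cell type. In the paper, 0.0021 was the p that corresponded to an adjusted p of 0.01 in its own LE results. The paper reported more DE genes in LE, GE and S than the 1146, 81 and 170 called here, so that the stringency is not the same. Between cell types, the libraries of each pair were fitted together and an adjusted p below 0.05 was used. The procedures were tested on simulated data. Members were named if called in any of the 9 comparisons, if their pregnant and control libraries did not overlap, if they had the highest level per kilobase of their role in a cell type, or if earlier results named them (LGR5 and SOSTDC1). WNT2, ZNRF3, FZD7, ROR1 and AXIN2 were added after their values had been seen. Alternatives were other size factors, filters on low counts, DESeq2 1.42.0, other thresholds, the 6 gilts with S, a joint fit, a gilt block and leaving out each gilt. Exon bases shared with other genes were counted in windows of 50 bases and by overlap. The depth of a library limits low members: 3 counts were taken as the floor. Library totals ranged from 893912 to 4020796 counts.

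The number of a library names its gilt and pairs the cell types. Deviations from the group means correlated with a median of 0.253 within gilts between LE and GE (above 0.1 in 6 of 8), 0.302 for the pair of LE with S (6 of 6) and 0.481 for that of GE with S (5 of 6). Pregnant and control gilts are different animals, without a block.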

Additional observations from a re-analysis of the deposited data

Results flagged for a closer look

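The response of FZD6 was called different between LE and GE, with an interaction of −1.94 on the log2 scale (adjusted p = 0.0202, edgeR quasi-likelihood test). The call held in 3 of 8 fits that left out a gilt and was lost without gilts 01 and 02.

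In groups of 4 libraries, single libraries stood far from the others of their group in 6 of 80 groups of named members, where chance gives about 1 in 20. The share found is close to that rate, and the groups are not independent, since different members use the same libraries. In control GE, gilt 02 was low for FZD5 (111 CPM, nearest library 340 CPM) and for LGR4 (309 CPM, nearest 734 CPM), and this library has the highest fibroblast marker sum of control GE (45073 CPM). In pregnant LE, gilt 03 was high for FZD5 (663 CPM, nearest 295 CPM), gilt 01 for FZD8 (18.7 CPM, nearest 6.75 CPM) and gilt 14 for LGR4 (396 CPM, nearest 177 CPM). In pregnant GE, gilt 14 was high for LRP5 (209 CPM, nearest 90.3 CPM). The part of cell composition in these values was not tested.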

How the results depend on the processing

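The 7 members called in LE became 11 with DESeq2 or an adjusted p below 0.05, and 4 with at least 10 counts in every library or only the 6 gilts with an S library (4 to 9 when each gilt was left out). In GE 1 member was called by DESeq2 (0 to 2 without a gilt). In S 1 member was called with at least 10 counts or without gilts 01 and 02, and 0 at an adjusted p below 0.05 or 0.01 (1 to 2 without a gilt). Between LE and GE, 3 members were called at an adjusted p below 0.01 (3 to 10 without a gilt, the fewest without gilt 04), and between LE and S 1 at that threshold or with at least 10 counts (1 to 7 without a gilt). For the interaction of LE and GE, DESeq2 and the gilt block called 2 members, and an adjusted p below 0.01 or leaving out gilts 01 and 02 called 0 (0 to 3 without a gilt, 0 without gilts 02, 03, 04, 05 or 13). The cause of these changes was not tested. The share of all genes called can also change with the setting and is not given here. These counts, and those above without single gilts or gilts 01 and 02, are therefore not set against other genes. For the differences over both groups of gilts and the interactions, the gilt block changed no other call than those given beside the results. Of 750 values for single members, 659 kept their direction and side of the threshold, 72 fell short of it, 8 passed it and 11 changed direction, the latter for members that were not called. Without single gilts, the log2 FC of DKK1 in GE ranged from −1.44 to 0.26, that of DKK1 in S from −0.91 to 1.94, that of LEF1 in GE from −0.17 to 0.62 and that of FZD5 in LE from −0.17 to 0.40. With the 6 gilts it was −0.034 for LEF1 in GE and −0.15 for FZD5 in LE, and without gilts 01 and 02 it was −1.12 for DKK1 in S. Members near 3 counts per library, such as RNF43 and LGR5 in pregnant LE, are limited by depth.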
